A study of Mus musculus with 8 samples.

Results

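The genes described here are 9 that give macrophages their identity, namely the receptors *Csf1r* and *Adgre1* and the transcription factor genes *Spi1*, *Maf*, *Irf8*, *Cebpa*, *Cebpb*, *Tfec*, and *Mitf*. They were chosen by symbol, through the Ensembl gene identifiers of the deposited counts, and make up 9 of the 54146 genes counted. Bulk RNA-Seq had been performed on macrophages flow-sorted from the epididymal white adipose tissue (eWAT) of 4 C57Bl6 mice, as 1 FCGR4+ and 1 FCGR4- library per mouse. FCGR4 is an activating Fc receptor for IgG. All 4 mice had eaten a high-fat, high-cholesterol (HFHC) diet ad libitum for 24 weeks and were then held on short-term caloric restriction (stCR), with food cut by 30%, for 2 weeks. Both populations therefore carry the same diet and restriction, and no unrestricted or lean mice enter the comparison. Age, sex, and whether the LDL receptor had been lowered in these mice are not given in the sources used here. The antibodies the study lists for flow sorting of adipose cells, apart from those for tissue sections, include those against FCGR4 and against CD45, Ly6G, CD3, B220, and SiglecF, which mark leukocytes, neutrophils, T cells, B cells, and eosinophils, and none against F4/80 or CSF1R, while the full gate of this sort is not given in the sources used here.

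Macrophages depend on signals through CSF1R, the tyrosine kinase receptor for CSF1 and IL-34, for their survival and growth. *Adgre1* encodes F4/80, an adhesion G protein-coupled receptor used as a surface marker of mouse macrophages. PU.1, the ETS factor encoded by *Spi1*, is the pioneer factor of the myeloid lineage. It opens enhancers together with partners such as C/EBPα, C/EBPβ, and IRF8. c-MAF, encoded by *Maf*, is a leucine zipper factor linked to resident macrophages and to *Il10* expression. MITF and TFEC belong to the MiT family of helix-loop-helix factors, which act on genes of lysosomes and of osteoclasts.

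The libraries held between 35992794 and 66856746 counts, at which 3 counts, taken as the floor, correspond to 0.0440 to 0.0883 normalized CPM (the count scaled to the size of its library, with TMM factors). All 9 genes lay far above this floor, with from 134 counts for *Tfec* in the FCGR4- library of mouse 1 to 141508 for *Adgre1* in the FCGR4+ library of the same mouse. Macrophage markers were high in all 8 libraries, in which the 12 on the list summed to between 29320 and 68440 normalized CPM, with none at 0. *Lyz2* alone made up 14390 to 39810 of this. The sum does not measure purity, and in FCGR4- libraries mast cell and basophil markers reached 2171 and neutrophil markers 2225. Mice 1 and 2 carry another animal ID prefix than mice 3 and 4, whose meaning is not given in the sources used here. The 6 monocyte markers together measured 265 to 500 normalized CPM (FCGR4+) and 428 to 479 (FCGR4-) in mice 1 and 2, against 2123 to 2440 and 2362 to 3060 in mice 3 and 4, so values are given by mouse and by prefix throughout. In sorted bulk samples, fewer cells of a kind and less RNA per cell cannot be told apart.

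Promoter sequences were read from RefSeq on GRCm38.p6, the build named mm10 in the deposited data, as the 250 bases before the start of transcription. The table held 8 promoters of 5 members, *Cebpa*, *Cebpb*, *Irf8*, *Mitf*, and *Tfec*. *Csf1r*, *Adgre1*, *Spi1*, and *Maf* had no entry. Both strands were searched for 7 motifs of the factors studied here and of the basal promoter. These were GAGGAA for PU.1 (present in 23.3% of all 32851 promoters of the same length), TTGCNNAA for C/EBP (9.56%), TGCTGA for a MAF core site (16.1%), CACGTG (6.02%) and CATGTG (12.3%) for MiT factors, GAAANNGAAA for IRF (2.98%), and TATAAA for the TATA box (12.4%). The 3 promoters shown are the one that holds a C/EBP motif and the pair with a TATA box close before the start, with matches in capitals.
Mitf (chr6:97806808-97807057, plus strand): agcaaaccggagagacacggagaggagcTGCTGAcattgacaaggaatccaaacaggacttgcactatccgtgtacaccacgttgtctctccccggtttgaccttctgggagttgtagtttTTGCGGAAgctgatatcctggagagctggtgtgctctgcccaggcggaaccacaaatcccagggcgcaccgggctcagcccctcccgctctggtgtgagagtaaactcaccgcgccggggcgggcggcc
Cebpa (chr7:35119043-35119292, plus strand): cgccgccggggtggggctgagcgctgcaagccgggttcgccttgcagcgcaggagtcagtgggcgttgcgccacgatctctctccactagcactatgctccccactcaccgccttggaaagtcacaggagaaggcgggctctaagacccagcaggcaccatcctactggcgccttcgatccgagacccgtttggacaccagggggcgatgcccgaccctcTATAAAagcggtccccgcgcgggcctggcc
Irf8 (chr8:120736108-120736357, plus strand): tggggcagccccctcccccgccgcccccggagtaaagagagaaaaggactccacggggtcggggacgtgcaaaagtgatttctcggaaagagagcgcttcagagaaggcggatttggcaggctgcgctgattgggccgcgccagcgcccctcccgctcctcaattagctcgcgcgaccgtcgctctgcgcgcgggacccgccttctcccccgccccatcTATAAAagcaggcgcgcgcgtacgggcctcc
In *Mitf*, the first base of the C/EBP motif lay 129 bases before the start and that of the MAF core site 222 bases before it. The TATA box began 30 bases before the start in *Cebpa* and 31 in *Irf8*. No match overlapped another. The promoters of *Cebpb* and *Tfec* held none of the 7 motifs, and 1 MAF core site each was found at the second starts of *Mitf* and *Irf8*. At the third start of *Mitf*, a TATA box match on the opposite strand lay 175 bases before the start. A match is a run of letters and does not show binding.

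The first question was whether FCGR4+ and FCGR4- macrophages differ in these identity genes. In edgeR's paired quasi-likelihood fit none of the 9 passed an adjusted P of 0.1, and 2 of the 9, *Adgre1* and *Maf*, had an unadjusted P under 0.05. Of all 17095 genes tested in that fit, 0.0819% passed with higher and 1.19% with lower levels in FCGR4+ macrophages, and 3.1% had an unadjusted P under 0.05 with a higher level. DESeq2 with the paired model, the kind of test the study used, called 2 members, *Adgre1* and *Maf*, both higher. Beside them, 1.12% of all genes were called higher and 4.87% lower. Without a filter on low counts, edgeR called the same pair, beside 0.418% of 38021 genes called higher. That fit called 159 genes higher and 895 lower. The median log2 fold change of the 9 members was 0.10, and that of all tested genes was -0.0025. *Adgre1* and *Maf* were also the members with higher levels in FCGR4+ cells in 4 of 4 mice, a pattern that 8.38% of all tested genes showed.

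**Figure D1:**
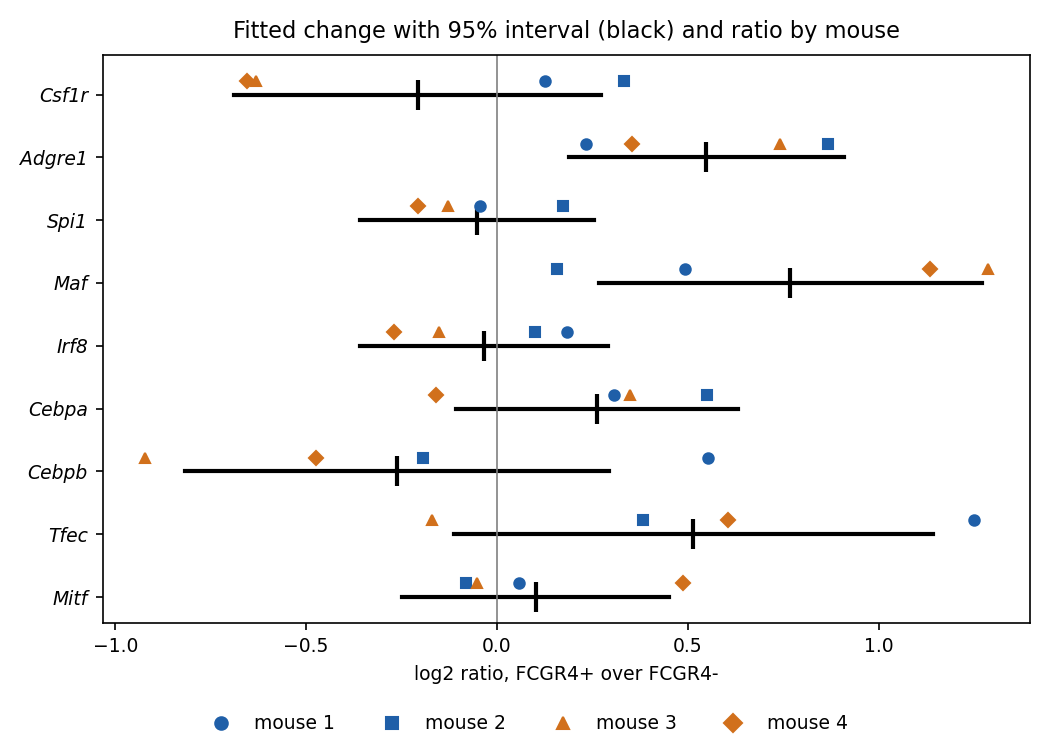
Log2 ratio of FCGR4+ over FCGR4- (x axis) for the 9 genes (rows). Black bars are the change fitted by edgeR with its 95% interval, and colored symbols are the ratios of single mice (blue, mice 1 and 2; orange, mice 3 and 4). The intervals of *Adgre1* and *Maf* lie above 0, and the mice of *Csf1r* split by color around 0.

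*Csf1r* (chr18:61105572-61132149, plus strand, mm10) was among the most abundant members. Its level in FCGR4+ macrophages was 1765, 1703, 873, and 978 normalized CPM in mice 1 to 4, and in FCGR4- macrophages it was 1617, 1353, 1352, and 1542. The FCGR4+ libraries of mice 3 and 4 lay below all others, those of mice 1 and 2 lay above all others, and the FCGR4- libraries sat in between within a narrow range. The mean was 1330 ± 470 (SD, n = 4) in FCGR4+ and 1466 ± 134 (SD, n = 4) in FCGR4- cells. The log2 fold change was -0.21 (95% interval -0.69 to 0.27, edgeR adjusted P = 0.735). Of its exon bases, 17.8% overlap *Hmgxb3* on the opposite strand, where read pairs were left uncounted.

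The main ligand of CSF1R and a pair of related receptors fell in FCGR4+ macrophages. Of 20 genes on the list of CSF ligands, receptors, adapters, and signaling proteins, 18 were tested, 3 fell and none rose in FCGR4+ macrophages, with a median log2 fold change of -0.20. The ligand gene *Csf1* measured 1.37, 2.97, 3.71, and 5.09 normalized CPM in FCGR4+ and 6.93, 11.04, 81.1, and 62.3 in FCGR4- libraries of mice 1 to 4. Every FCGR4+ library was below every FCGR4- library, and the FCGR4- libraries of mice 3 and 4 stood far above those of mice 1 and 2. *Csf1* fell by 3.10 on the log2 scale (SE 0.445, edgeR adjusted P = 0.0448). *Kit*, the receptor for stem cell factor, fell by 4.95 (SE 0.495, adjusted P = 0.0112), and *Flt3*, the receptor for FLT3 ligand, fell by 3.28 (SE 0.488, adjusted P = 0.0516). Without mouse 4 the call on *Csf1* was lost (adjusted P = 0.142), and *Flt3* lost its call without mouse 1 (0.132) or mouse 2 (0.149), while *Kit* kept it with any mouse left out. With no replicate block none of the 3 passed (0.164 for *Csf1*, 0.1555 for *Kit*, and 0.107 for *Flt3*). *Kit* is also on the mast cell list, of which 10 of 10 tested markers fell, and *Flt3* on the dendritic cell list, of which 3 of 8 fell. *Il34*, the other ligand, had a log2 fold change of -3.16 that did not pass (adjusted P = 0.330), with 2 FCGR4+ libraries under the floor of 3 counts. *Csf2ra*, the GM-CSF receptor chain, measured 178 to 226 normalized CPM in FCGR4+ and 184 to 253 in FCGR4- cells (log2 fold change -0.19, 95% interval -0.57 to 0.19, adjusted P = 0.695). SHP-1, encoded by *Ptpn6* and a brake on the receptor, differed by -0.09 on the log2 scale (adjusted P = 0.859).

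**Figure D2:**
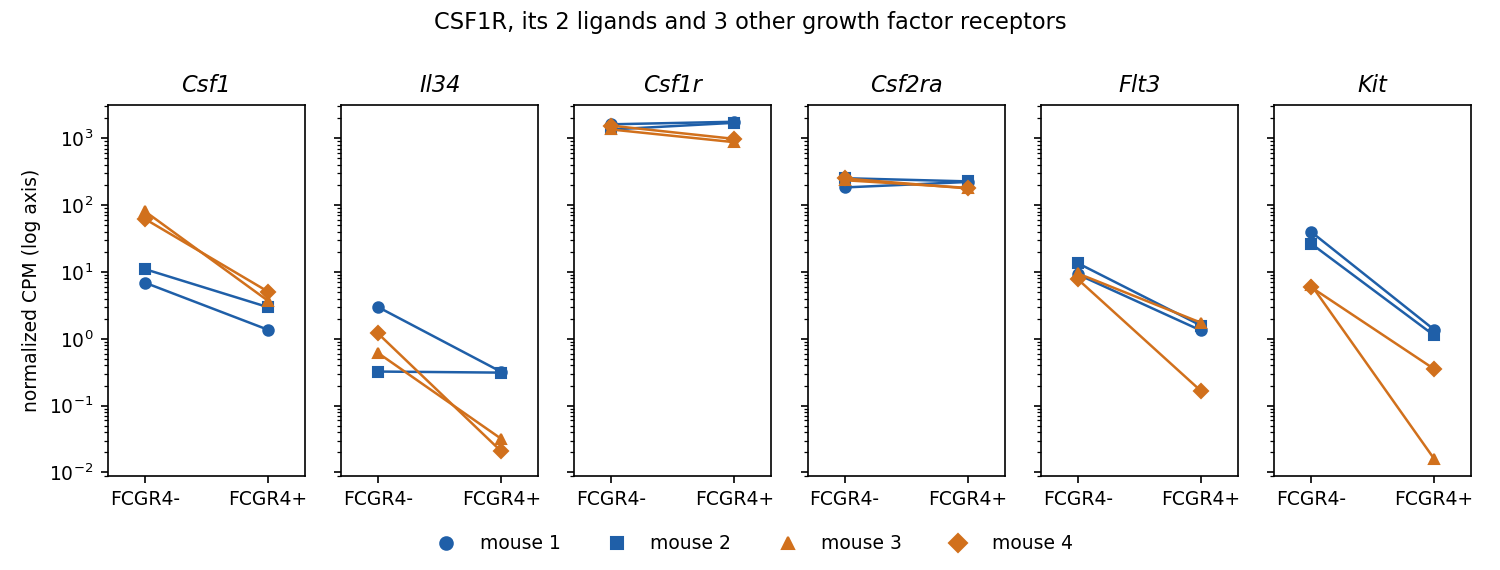
Normalized CPM (log y axis) of *Csf1r*, its ligands *Csf1* and *Il34*, and the receptors *Csf2ra*, *Flt3*, and *Kit* in FCGR4- and FCGR4+ libraries, joined by mouse. *Csf1*, *Flt3*, and *Kit* slope down in every mouse, while *Csf1r* lies between 873 and 1765 in all 8 libraries.

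*Adgre1* (chr17:57358686-57483529, plus strand) measured 2386, 1463, 1143, and 1302 normalized CPM in the FCGR4+ libraries of mice 1 to 4 and 2031, 802, 684, and 1019 in the FCGR4- libraries. Within each mouse the FCGR4+ library was the higher one, but the populations overlapped because mouse 1 was high in both. The means were 1573 ± 557 and 1134 ± 614 normalized CPM (SD, n = 4 each). The log2 fold change was 0.55 (95% interval 0.19 to 0.91, unadjusted P = 0.00866, adjusted P = 0.261 by edgeR), and DESeq2 gave an adjusted P of 0.0311. With no replicate block the edgeR adjusted P was 0.929. *Adgre1* made up 90.4% ± 3.7 (SD, n = 4) of the length-scaled level of 17 adhesion GPCR genes in FCGR4+ and 83.6% ± 6.1 in FCGR4- cells, a difference of 6.81 percentage points (exact sign-flip permutation test over 4 mice, two-sided P = 0.25, where the smallest P possible is 0.13; P = 0.675 adjusted over the 9 shares tested). Of the 16 other adhesion GPCR genes on the list, 15 were tested, 2 fell and none rose, with a median log2 fold change of -1.68. These were *Adgrg3*, found in neutrophils, which fell by 3.19 (SE 0.481, adjusted P = 0.0527), and *Adgrd1*, which fell by 2.33 (SE 0.396, adjusted P = 0.0666). *Adgrg3* lost its call without mouse 1, 2, or 4 (adjusted P = 0.109, 0.157, and 0.152) and *Adgrd1* without mouse 1 or 4 (0.209 and 0.133), and neither passed with no replicate block (0.530 and 0.284). *Adgre5*, which encodes CD97, and *Adgre4*, both close relatives of *Adgre1*, had log2 fold changes of -0.60 and 0.15 (adjusted P = 0.515 and 0.819).

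*Spi1* (chr2:91082390-91115756, plus strand) varied the least of the 9. It measured 252, 291, 271, and 272 normalized CPM in FCGR4+ and 260, 258, 297, and 314 in FCGR4- macrophages of mice 1 to 4, so that its highest library was 1.25 times its lowest. The populations overlapped throughout. The log2 fold change was -0.05 (95% interval -0.36 to 0.26, adjusted P = 0.902). *Spi1* held 56.8% ± 2.4 (SD, n = 4) of the length-scaled level of 15 ETS genes in FCGR4+ and 54.8% ± 5.4 in FCGR4- cells (exact two-sided sign-flip permutation P = 0.625, adjusted P = 0.703). Among the 13 other ETS genes tested, none passed with edgeR, 2 had an unadjusted P under 0.05, and DESeq2 called both lower. *Spib*, the lymphoid relative of *Spi1*, differed by -4.04 on the log2 scale (adjusted P = 0.153) at 0.765 to 1.97 normalized CPM in FCGR4- cells, and *Ets1*, expressed in lymphocytes, by -1.08 (adjusted P = 0.145). The FCGR4+ libraries of both lay below all FCGR4- libraries.

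*Maf* (chr8:115682942-115707794, minus strand) had the largest log2 fold change of the members in this fit. Its level was 108, 89.1, 184, and 138 normalized CPM in the FCGR4+ libraries and 76.4, 79.9, 75.6, and 62.8 in the FCGR4- libraries of mice 1 to 4. The 4 FCGR4+ libraries all lay above the 4 FCGR4- libraries, as they did for 0.883% of all genes tested, and those of mice 3 and 4 were the highest. The mean was 129.7 ± 41.6 in FCGR4+ against 73.7 ± 7.5 normalized CPM in FCGR4- cells (SD, n = 4 each). The log2 fold change was 0.77 (95% interval 0.27 to 1.27, unadjusted P = 0.00833, edgeR adjusted P = 0.258). DESeq2 gave an adjusted P of 0.0161. By edgeR, mice 3 and 4 alone gave 0.0955 and mice 1 and 2 alone 0.919. The edgeR fits with 1 mouse left out gave 0.206 to 0.666, and that with no replicate block gave 0.356.

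None of the 4 other MAF genes tested passed with edgeR or DESeq2, none had an unadjusted P under 0.05, and their median log2 fold change was -0.28. Read pairs over 5.34% of the exon bases of *Maf*, shared with *Gm15655* on the opposite strand, were left uncounted.

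**Figure D3:**
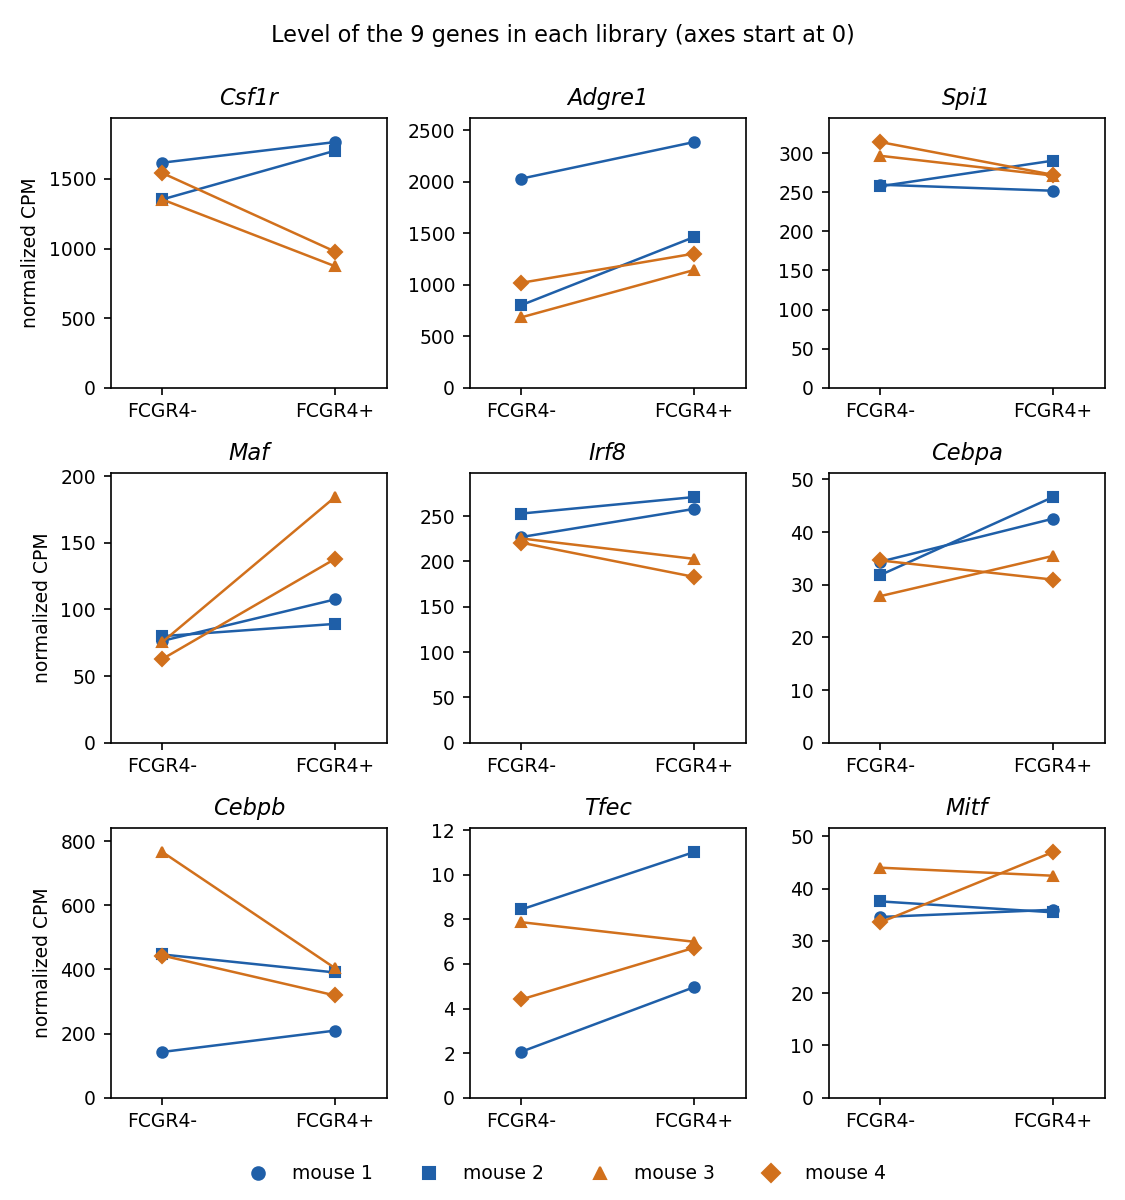
Normalized CPM (y axes, from 0) of the 9 genes in FCGR4- and FCGR4+ libraries, with a line for each mouse (blue, mice 1 and 2; orange, mice 3 and 4). *Adgre1* and *Maf* slope up in every mouse, *Csf1r* and *Irf8* slope up in blue and down in orange, and *Spi1* is nearly flat.

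*Irf8* (chr8:120736358-120756694, plus strand) measured 258, 271, 203, and 183 normalized CPM in FCGR4+ and 227, 253, 225, and 221 in FCGR4- macrophages. As with *Csf1r*, FCGR4+ was the higher library in mice 1 and 2 and the lower one in mice 3 and 4. The log2 fold change was -0.03 (95% interval -0.36 to 0.29, adjusted P = 0.943). Among the 7 other IRF genes tested, none passed and 1 had an unadjusted P under 0.05, *Irf4*, which differed by -1.96 on the log2 scale (adjusted P = 0.303 by edgeR and 0.0203 by DESeq2). *Irf7*, an interferon-induced factor, differed far more between mice than between populations. It measured 50.4 and 79.1 normalized CPM in FCGR4+ cells of mice 1 and 2, against 412 and 739 in mice 3 and 4, and 22.1 and 46.6 against 492 and 638 in FCGR4- cells. The share of *Irf8* in the length-scaled level of 9 IRF genes was accordingly 18.8% and 20.6% in FCGR4+ cells of mice 1 and 2 and 11.8% and 7.46% in those of mice 3 and 4. Between populations this share differed by -0.70 percentage points (exact two-sided sign-flip permutation P = 0.375, adjusted P = 0.675).

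The C/EBP genes were unequal in level and in spread. *Cebpa* (chr7:35119293-35121928, plus strand) measured 42.5, 46.6, 35.5, and 31.0 normalized CPM in FCGR4+ and 34.4, 31.8, 27.8, and 34.6 in FCGR4- cells, higher in FCGR4+ in 3 of 4 mice (log2 fold change 0.26, 95% interval -0.11 to 0.63, adjusted P = 0.610). *Cebpb* (chr2:167688915-167690418, plus strand), induced by inflammatory stimuli, measured 209, 391, 404, and 319 normalized CPM in FCGR4+ and 143, 447, 766, and 443 in FCGR4- cells. Its FCGR4- values spanned the whole range, from the lowest library of all in mouse 1 to the highest in mouse 3. The log2 fold change of *Cebpb* was -0.26 (95% interval -0.82 to 0.29, adjusted P = 0.711). *Cebpb* made up 87.5% ± 2.9 of the length-scaled C/EBP level in FCGR4+ and 88.4% ± 7.2 in FCGR4- cells (SD, n = 4 each; exact two-sided sign-flip permutation P = 0.75, adjusted P = 0.75). *Cebpa* made up 6.27% ± 2.3 and 5.10% ± 3.8 (exact two-sided sign-flip permutation P = 0.375, adjusted P = 0.675). Of the 4 other C/EBP genes none passed with edgeR, 2 had an unadjusted P under 0.05, and DESeq2 called 1. *Cebpd*, also an inducible factor, was lower in FCGR4+ in 4 of 4 mice, by -0.74 on the log2 scale (unadjusted P = 0.00592, adjusted P = 0.216 by edgeR and 0.0263 by DESeq2). Overlaps with opposite-strand genes covered 20.7% of the exon bases of *Cebpb* (*Tmem189*) and 1.94% of those of *Cebpa* (*Gm45091*).

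The MiT factors had the lowest mean levels of the 9 members per kb of exon, whereas in normalized CPM *Cebpa* lay below *Mitf* in both populations. *Mitf* (chr6:97807052-98021349, plus strand) measured 36.0, 35.5, 42.5, and 47.0 normalized CPM in FCGR4+ and 34.6, 37.6, 44.0, and 33.5 in FCGR4- macrophages (log2 fold change 0.10, 95% interval -0.25 to 0.45, adjusted P = 0.819). *Tfec* (chr6:16833373-16898441, minus strand), a macrophage-restricted MiT gene, measured 4.96, 11.02, 6.995, and 6.72 in FCGR4+ and 2.06, 8.45, 7.87, and 4.41 in FCGR4- cells. It was higher in FCGR4+ in 3 of 4 mice, and mouse 1 had the lowest value in both populations (log2 fold change 0.51, 95% interval -0.11 to 1.14, adjusted P = 0.568). *Tfe3* and *Tfeb*, the remaining family members and regulators of lysosome genes, had log2 fold changes of 0.01 and -0.14 (adjusted P = 0.983 and 0.783). Of the length-scaled level of the 4 MiT genes, *Mitf* held 29.4% ± 6.6 in FCGR4+ and 27.3% ± 2.4 in FCGR4- cells (SD, n = 4 each; exact two-sided sign-flip permutation P = 0.625, adjusted P = 0.703). *Tfec* held 5.86% ± 1.6 and 4.47% ± 2.1, with the higher share in FCGR4+ in 4 of 4 mice (difference 1.39 percentage points, exact two-sided sign-flip permutation P = 0.13, the smallest possible, adjusted P = 0.675).

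**Figure D4:**
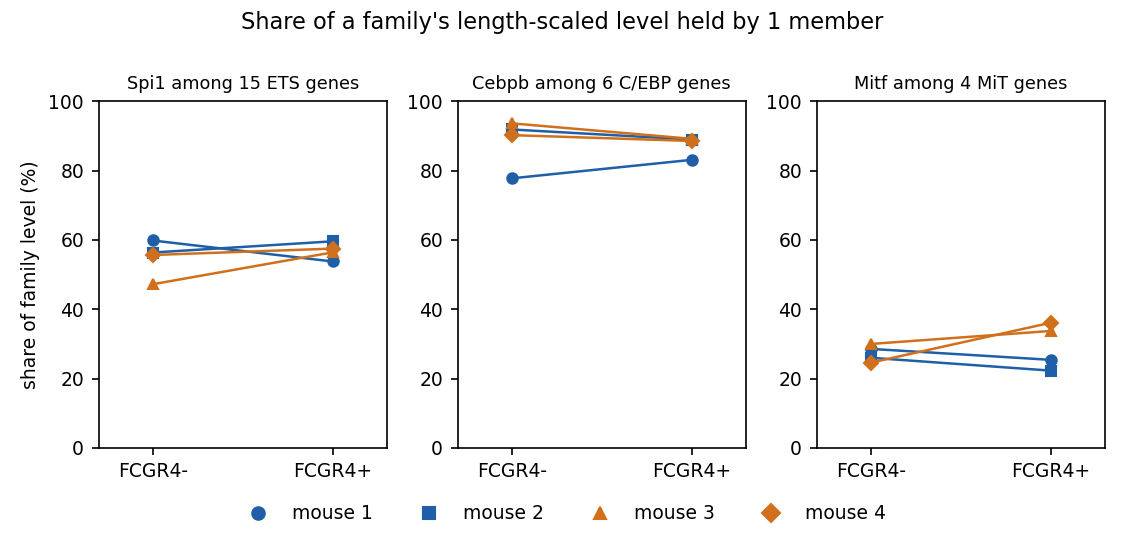
Share (%, y axis from 0 to 100) of the length-scaled level of a gene family held by *Spi1*, *Cebpb*, and *Mitf* in FCGR4- and FCGR4+ libraries, joined by mouse. *Cebpb* holds at least 77.8% of its family in each library, *Spi1* holds 47.2% to 59.8%, and *Mitf* holds 22.3% to 36.1%.

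Directions by ID prefix were compared next, since the mice of the 2 prefixes differed in monocyte and interferon genes. For *Csf1r*, the mean log2 ratio was 0.23 in mice 1 and 2 and -0.64 in mice 3 and 4. For *Maf* it was 0.32 and 1.21, and for *Cebpb* 0.18 and -0.70, in the same order. For *Adgre1* it was 0.55 in both pairs of mice. A test of the difference between prefixes, chosen after the values by mouse had been seen, gave a log2 difference (mice 3 and 4 minus mice 1 and 2) of -0.87 for *Csf1r* (SE 0.184, unadjusted P = 0.00363, edgeR adjusted P = 0.303), of 0.88 for *Maf* (SE 0.213, adjusted P = 0.304), and of -0.88 for *Cebpb* (SE 0.316, adjusted P = 0.341). These 3 of the 9 members had an unadjusted P under 0.05, as did 13.8% of all genes, and none of the 17095 genes passed the adjusted threshold. With 2 mice to a prefix, the spread between mice of a prefix is poorly known, so a prefix difference is hard to separate from differences between mice.

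Levels were compared between genes as normalized CPM per kb of exon. In FCGR4+ macrophages the order was *Adgre1* (485 ± 172; mean ± SD, n = 4), *Csf1r* (272 ± 96.1), *Cebpb* (219.8 ± 59.3), *Spi1* (100.8 ± 5.84), *Irf8* (32.4 ± 6.02), *Maf* (15.7 ± 5.05), *Cebpa* (14.8 ± 2.67), *Mitf* (6.49 ± 0.893), and *Tfec* (1.33 ± 0.458). Neighbors whose ranges over the 4 mice overlapped were *Adgre1* and *Csf1r*, *Csf1r* and *Cebpb*, and *Maf* and *Cebpa*. In FCGR4- macrophages *Adgre1* (350 ± 189), *Csf1r* (300 ± 27.5), *Cebpb* (299 ± 169), and *Spi1* (104.7 ± 10.4) overlapped as neighbors in turn. Below them *Irf8* (32.8 ± 2.06), *Cebpa* (12.2 ± 1.19), *Maf* (8.94 ± 0.908), *Mitf* (6.04 ± 0.760), and *Tfec* (1.02 ± 0.538) were each apart from the next. *Maf* thus stood below *Cebpa* in FCGR4- cells in 4 of 4 mice, and the 2 genes overlapped in FCGR4+ cells. Per length, *Adgre1* lay above 99.1% of tested genes and *Spi1* above 95.8%, whereas *Mitf* lay above 67.2% and *Tfec* above 36.3%.

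**Figure D5:**
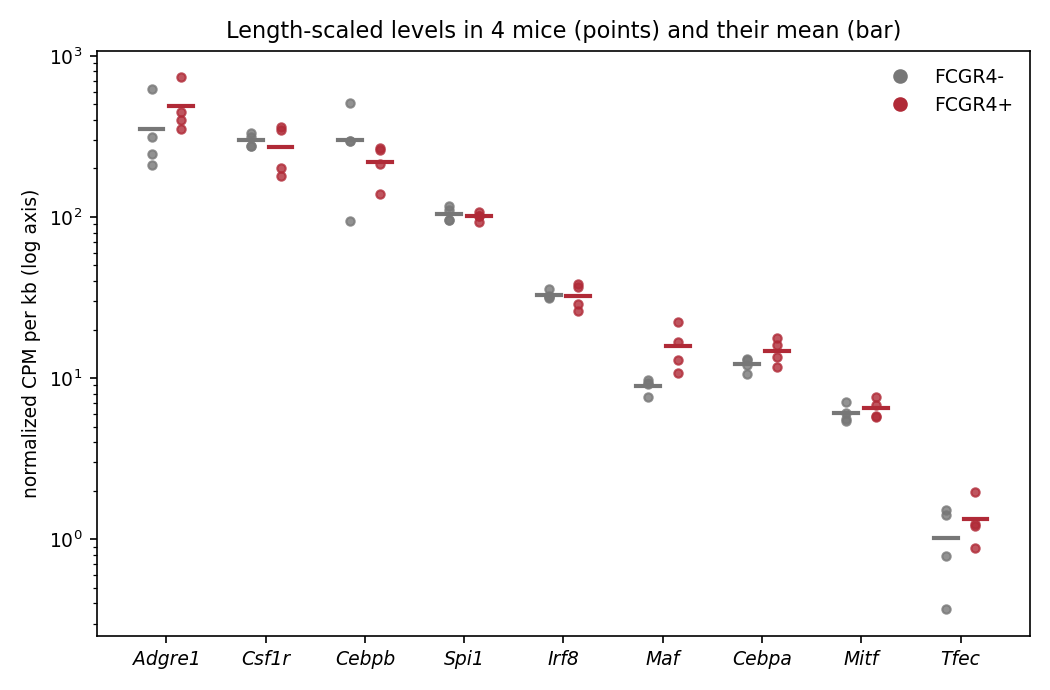
Normalized CPM per kb of exon (log y axis) of the 9 genes, ordered by their mean in FCGR4+ macrophages. Points are the 4 mice (gray, FCGR4-; red, FCGR4+) and bars their mean, which runs from 485 for *Adgre1* to 1.33 for *Tfec* in FCGR4+ cells.

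Genes downstream of and beside the members were read from the same fit. Of 21 known targets of the factors, 20 were tested and none passed, while 6 had an unadjusted P under 0.05 with a higher and 1 with a lower level in FCGR4+ cells, and DESeq2 called 6 higher. Their median log2 fold change was 0.22. Among the most abundant of them, *C1qb* and *C1qc*, complement genes on that list, had log2 fold changes of 0.62 and 0.62 (adjusted P = 0.297 and 0.321), and *Gpnmb*, a target of MITF, one of 0.22 (adjusted P = 0.648). *Il10*, a target of c-MAF picked out after its values had been seen, measured 58.9, 30.6, 79.6, and 85.7 normalized CPM in FCGR4+ and 41.7, 11.7, 31.2, and 57.0 in FCGR4- cells, higher in 4 of 4 mice (log2 fold change 0.95, SE 0.199, adjusted P = 0.126). Of 12 macrophage markers none passed, 8 had an unadjusted P under 0.05 with higher levels, DESeq2 called 7 higher, and the median log2 fold change was 0.50. *Lyz2*, *Ctss*, and *C1qb* were the most abundant, with log2 fold changes of 0.13, 0.65, and 0.62 (adjusted P = 0.708, 0.215, and 0.297). *C1qa*, *C1qb*, *C1qc*, and *Fcgr1* are on both the list of targets and that of macrophage markers. All had an unadjusted P under 0.05 with higher levels in the edgeR fit, so each was counted on both lists. Of 31 other factors of macrophages none passed either, with 3 higher and 2 lower at an unadjusted P under 0.05 and 2 higher and 1 lower by DESeq2. The most abundant, *Fos*, *Junb*, and *Klf6*, had log2 fold changes of -0.0065, -0.17, and 0.01 (adjusted P = 0.992, 0.746, and 0.980).

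Markers of mast cells, neutrophils, fibroblasts, and T and NK cells included the most genes that fell in FCGR4+ libraries, whereas no adipocyte or endothelial marker passed the test. Of 20 factors of other lineages, 16 were tested, 2 fell and none rose (median log2 fold change -1.62, with 2 values above 0). *Gata2*, needed for mast cells and progenitors, measured 0.438, 0.1248, 0, and 0 normalized CPM in FCGR4+ and 9.83, 7.27, 2.26, and 3.58 in FCGR4- cells (adjusted P = 0.0306, 0.117 without mouse 2, 0.1555 with no replicate block, and 0.1174 in mice 3 and 4 alone). *Gata1*, an erythroid and mast cell factor, was at or under the floor of 3 counts in each FCGR4+ library and at 0.718 to 1.66 in FCGR4- cells (adjusted P = 0.0706, 0.112 to 0.220 with 1 mouse left out, and 0.0877 with no replicate block). Mast cell and basophil markers summed to between 14.5 and 30.5 normalized CPM in FCGR4+ and between 394.7 and 2171 in FCGR4- libraries, and 10 of 10 tested fell. *Mcpt8*, the basophil marker of the list, was at 0 in every FCGR4+ library, and no other marker of these lists was. In FCGR4- libraries of mice 1 to 4 *Mcpt8* measured 1.093, 0, 0.0181, and 0.1905 normalized CPM, so the populations overlapped, and it was not tested. The corresponding ranges were 63.0 to 498 and 308 to 2225 for neutrophil markers (6 of 8 fell), 134.9 to 272 and 330 to 1420 for fibroblast and preadipocyte markers (4 of 7), 15.7 to 23.0 and 53.9 to 101.5 for dendritic cell markers (3 of 8), and 3.72 to 8.99 and 16.5 to 52.5 for T and NK cell markers (5 of 7). B cell markers (1 of 4 fell), mesothelial markers (1 of 5), and monocyte markers (2 of 6) followed, and no endothelial (0 of 5) or adipocyte marker (0 of 7) passed with edgeR or DESeq2, though 1 of each had an unadjusted P under 0.05. *Fabp4* was the most abundant adipocyte marker, at 138 ± 34.8 in FCGR4+ and 87.2 ± 33.3 normalized CPM in FCGR4- cells, and *Vwf* the most abundant endothelial one, at 5.33 ± 1.99 and 7.79 ± 7.66 (SD, n = 4 each). The adipocyte markers summed to 124.9 to 195.3 normalized CPM in FCGR4+ and 82.7 to 160.3 in FCGR4- libraries. Of the 7 adipocyte markers tested, 5 had log2 fold changes below 0 and 2 above it, with a median of -0.31. No marker on these lists rose. The part of these other cells in the levels of the 9 members was not tested.

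For each member, the genes most alike in pattern were sought among those with a mean of at least 5 normalized CPM, by the root mean square (RMS) distance of mean-centered log2 CPM over the 8 libraries, which come in pairs from 4 mice. The nearest were *Psd4*, *Map3k11*, and *Ctnna1* for *Csf1r* (0.0672 to 0.0777 on the log2 scale), *Smarcb1* and *Dok3* for *Spi1* (0.0320 and 0.03945), and *Bpnt1*, *Med20*, and *Pex19* for *Irf8* (0.0593 to 0.0644). *Nxt1*, *Actr10*, and *Ggps1* were nearest to *Mitf* (0.0585 to 0.0651), and *Gm8141*, *Trak2*, and *Sdccag8* to *Cebpa* (0.0830 to 0.0914). Members that varied more between libraries had more distant neighbors. These were *Hk2*, *Snx18*, and the pseudogene *Pgam1-ps1*, whose counts may belong to its parent gene, for *Cebpb* (0.123 to 0.152), *Hnrnpa0*, *Rsbn1l*, and *BC002059* for *Maf* (0.121 to 0.165), *Rrm2*, *Gm20775*, and *Pianp* for *Adgre1* (0.143 to 0.161), and *Rasgrp2*, *Vrk3*, and *0610040J01Rik* for *Tfec* (0.274 to 0.301). No member was among the 3 nearest genes of another.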

How the data were processed

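RNA had been extracted from FCGR4+ and FCGR4- macrophages of 4 mice. The authors mapped reads to mm10 with STAR and counted read pairs per gene with featureCounts 1.6.3, and the deposited values are these counts, not normalized. Counting ignored strand, gave a pair that mapped more than once to each place, and left out pairs on exons shared by genes. Every per-sample column was used (0 left out).

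Libraries were assigned to population and mouse from the labels. The 17095 genes that reached 10 counts in 4 or more of the 8 libraries were normalized by TMM. They were tested with edgeR 4.0.16 (R 4.3.3, quasi-likelihood, mouse as a block) with Benjamini-Hochberg adjustment over all of them and a threshold of 0.1. The study also paired by mouse, but used DESeq2. The 95% intervals used the fit's own SE and degrees of freedom. Ratios by mouse used a prior count of 2 on the log2 scale. Libraries of the same mouse deviated together (median correlation 0.336, lowest 0.291, against -0.0615 between mice). No 2 libraries of a population agreed within sampling noise (chi-square per degree of freedom at least 86.8). The fit was tested on simulated counts.

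Described were the 9 members, genes of their families with counts and calls, genes of other lists past the threshold or, where none passed, up to 3 of the most abundant, and for each member the 3 nearest genes. Some of these genes are not reported here. Members and lists were chosen with earlier results of these data known. Family shares used normalized CPM per kb of exon, with exact sign-flip permutation tests. Alternatives were DESeq2 1.42.0, no block, RLE factors, library size alone, other filters, the newer quasi-likelihood method, a threshold of 0.05, and fewer mice. A prefix interaction and the *Cebpb* share by prefix were added after the data had been seen.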

Additional observations from a re-analysis of the deposited data

Results flagged for a closer look

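*Csf1r* was higher in FCGR4+ macrophages in both mice of one ID prefix and lower in both mice of the other. The difference between prefixes was -0.87 on the log2 scale (SE 0.184, edgeR adjusted P = 0.303). *Irf8* split the same way, with a difference of -0.35 (SE 0.186, adjusted P = 0.442). Neither difference passed the threshold.

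The share of *Cebpb* in the C/EBP level of FCGR4+ macrophages was 83.1% in mouse 1, apart from the 88.6% to 89.2% of mice 2 to 4. Of 45 sets of 4 values screened for a sample far from the others, this was the 1 found, and chance marks about 1 in 20.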

How the results depend on the processing

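Of 117 refitted log2 fold changes of the 9 members, 105 kept their direction and side of the threshold, 5 passed it, and 7 turned in sign. Those that turned were, in mice 1 and 2 alone, *Csf1r* (0.23), *Spi1* (0.064), *Irf8* (0.14), *Cebpb* (0.18), and *Mitf* (-0.013), and, without mouse 4, *Irf8* (0.044) and *Mitf* (-0.026). With 1 mouse left out, *Irf8* ranged from -0.107 to 0.044, *Mitf* from -0.026 to 0.157, *Csf1r* from -0.395 (without mouse 2) to -0.056 (mouse 4), *Cebpb* from -0.531 (mouse 1) to -0.0525 (mouse 3), *Tfec* from 0.27 (mouse 1) to 0.73 (mouse 3), *Cebpa* from 0.16 (mouse 2) to 0.40 (mouse 4), and *Spi1* from -0.133 (mouse 2) to -0.0001 (mouse 4). Over all of these refits, *Adgre1* stayed between 0.44 and 0.65 and *Maf* between 0.33 and 1.19. Members past the threshold numbered 2 with no filter, 2 with DESeq2, and 1 in mice 3 and 4 alone (*Maf*), and 0 with each mouse left out.

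All genes past the threshold numbered 217. There were 48 with no replicate block, the fit that ignores the pairing by mouse, 1054 with no filter, 632 with the newer quasi-likelihood method, 1024 with DESeq2, 76 at a threshold of 0.05, 113 in mice 1 and 2, 113 in mice 3 and 4, and 84 to 163 with 1 mouse left out (84 without mouse 1, 91 without mouse 4, and 127 without mouse 2). Family list genes past it numbered 5 and became 0 with no replicate block, 14 with no filter, 3 with at least 10 counts in every library, 10 with the newer method, 13 with DESeq2, 2 at 0.05, 3 in mice 1 and 2, 2 in mice 3 and 4, and 2 to 5 with 1 mouse left out (2 without mouse 1 or 4 and 3 without mouse 2). RLE factors and library size alone kept both counts within 1.5 times. Without length scaling, 7 of 9 members kept their rank in FCGR4+ cells. Differences in family share moved by less than 1 SD, although those of *Spi1* (-0.32 percentage points without mouse 3), *Mitf* (-1.04 without mouse 4), and *Cebpb* (0.25 without mouse 3, and 1.22 in mice 1 and 2 against -3.08 in mice 3 and 4) changed sign. The causes were not tested. With 4 mice, the exact tests of shares cannot fall below P = 0.13.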
